A study of Homo sapiens with 4 samples.

Results

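The repeats described here are the long terminal repeats (LTRs) of 4 families of class III endogenous retroviruses, the ERVL group: MLT2, LTR16, LTR33 and LTR40. They were chosen by name, as every entry of the deposited LTR table that starts with one of these family names, which gave 33 of 373 subfamilies: 12 of MLT2, 12 of LTR16, 5 of LTR33 and 4 of LTR40. A subfamily pools the many genomic copies that share a consensus, so each value below stands for a repeat type and not for a locus. HCT116, a widely used cell line from a human colorectal carcinoma, received either PBS or 5-aza-CdR at 300 nM (decitabine, a nucleoside analogue that is built into DNA, traps DNA methyltransferases there and so lowers DNA methylation) for 24 h, and cells were collected at 5 days. Histone H3 dimethylated (H3K9me2) or trimethylated (H3K9me3) at lysine 9 was pulled down from native, uncrosslinked single nucleosomes and sequenced. Each of the 4 combinations of mark and treatment was 1 library, so no value has a replicate, no test between treatments was possible, and an SD given here is over subfamilies.

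An LTR is the repeated end of a provirus and carries its promoter and enhancer sequences; most LTRs in the human genome are solitary, left after the internal part recombined away. ERVL elements lack an envelope gene and are old, and their copies have lost much of their original sequence. MLT2A1 and MLT2A2 flank HERV-L, which is transcribed in the human cleavage-stage embryo, where DUX4 activates it; its mouse counterpart MERVL is bounded by MT2_Mm. In mouse embryonic stem cells, the H3K9me2 methyltransferases G9a and GLP restrain MERVL, whereas H3K9me3 set by SETDB1 is best known at younger retroviruses of classes I and II. LTR40 is the LTR of HERVL40.

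Values are the authors' z-scores per subfamily, and neither the population they were standardised on nor the depth behind them is given in the sources used here. A level or a difference is therefore read only against the other subfamilies of the same table. Where a distance is given in robust SDs, it is the distance from the median of all 373 subfamilies divided by their scaled median absolute deviation. All 33 subfamilies were higher in the 5-aza-CdR library than in the PBS library for both marks. That held for 99.7% of all subfamilies for H3K9me2 and 100% for H3K9me3, so it describes the libraries and not these repeats.

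In PBS-treated cells, the ERVL LTRs lay high in H3K9me2. The z-score ran from -0.397 at MLT2B5 through a median of -0.263 to -0.0341 at LTR16D1, against a median of -0.412 for all subfamilies. All 33 lay above that median, as did 49.9% of the whole table. In H3K9me2 after 5-aza-CdR the members ran from 0.241 at MLT2A1 through 0.474 to 0.666 at LTR33B, and 31 of 33 lay above the median of 0.312. The exceptions were MLT2A1 and MLT2A2, the LTRs of HERV-L. Of these, MLT2A2 was level with the median, at 0.310 or -0.0067 robust SDs, and MLT2A1 was at -0.29 robust SDs.

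H3K9me3 placed them less far from the rest. In PBS the z-score ran from -0.510 at LTR40c through -0.493 to -0.460 at LTR33B, and 28 of 33 lay above the median of all subfamilies (-0.504), where the whole table had 49.9%. LTR16A was itself the median subfamily, and LTR16A1, LTR33, LTR33A_ and LTR40c lay below it. In 5-aza-CdR it ran from 0.366 at MLT2A1 through 0.546 to 0.730 at LTR16D2, and 30 of 33 lay above the median of 0.468, the exceptions being MLT2A1, MLT2A2 and LTR33A_. MLT2A2 and LTR33A_ lay only just below it, at -0.06 and -0.03 robust SDs. LTR16A, LTR16A2 and LTR16B1 lay only just above it, at 0.02, 0.04 and 0.04. In robust SDs the median member was 0.82 above the middle of the table for H3K9me2 in PBS and 0.65 in 5-aza-CdR, and 0.47 and 0.46 for H3K9me3.

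**Figure D1:**
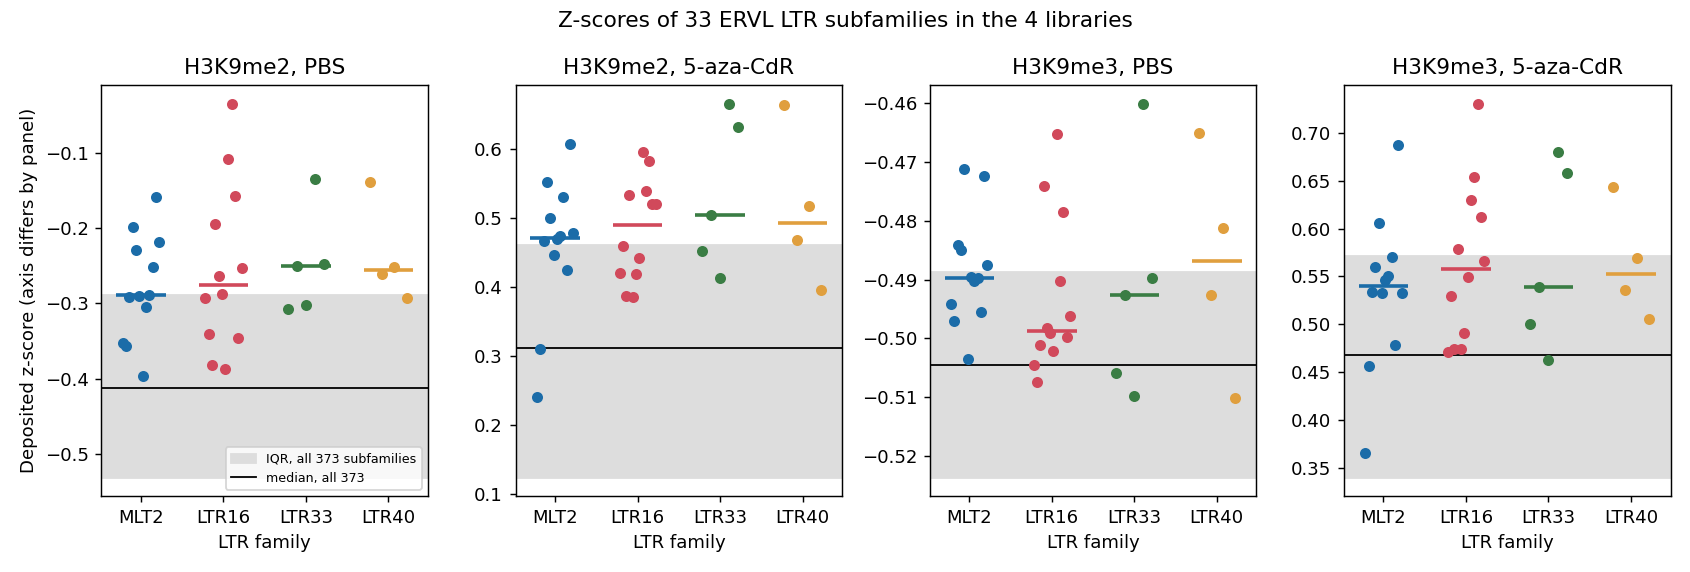
Deposited z-scores (vertical axis, range differs by panel) of the 33 ERVL LTR subfamilies by family in each of the 4 libraries. Each point is 1 subfamily, coloured bars are family medians, the black line is the median and the grey band the interquartile range of all 373 subfamilies; in H3K9me2 with PBS all 33 points lie above the line.

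The members' SD over subfamilies was 0.0848 for H3K9me2 in PBS and 0.0936 in 5-aza-CdR, which is 0.454 and 0.322 of the SD over the whole table. For H3K9me3 the SDs were 0.0134 and 0.0784, or 0.377 and 0.381 of that over all subfamilies. The whole table includes the CpG-rich LTRs, among which there are no members. The 172 other subfamilies within the members' CpG density range were also narrower than the whole table, though less so than the members. Their ratios were 0.720 and 0.667 for H3K9me2 (PBS, then 5-aza-CdR) and 0.616 and 0.636 for H3K9me3. The 38 MaLR LTRs (MLT1, MST and THE1, relatives of ERVL) were about as narrow as the members in the PBS libraries, at 0.476 of the whole-table SD for H3K9me2 and 0.312 for H3K9me3, and wider in 5-aza-CdR, at 0.612 and 0.511. LTR16D1 in H3K9me2 with PBS, at 2.08 robust SDs above the middle and rank 4 of 373, was the only member of 33 to lie more than 2 robust SDs from the middle of any of the 4 libraries. Over the whole table, the shares that far above and below were 1.07% and 4.02% for H3K9me2 in PBS, 1.07% and 7.24% for H3K9me2 in 5-aza-CdR, 3.75% and 5.63% for H3K9me3 in PBS, and 0.804% and 5.36% for H3K9me3 in 5-aza-CdR. Among the 172 others of like density, the share below was 0.581% in each library. The shares above were 0%, 1.74%, 3.49% and 0% in the same order.

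CpG density, which falls as methylated cytosines mutate away in old repeats, was low to intermediate in all 4 families. It ran from 4.90 per 1000 at LTR40A1 to 8.11 per 1000 at LTR16B2, with the denominator of the deposited density not stated. When the table was split by density, 0 of 33 members fell in the CpG-rich group of 125, 19 in the intermediate group of 124 and 14 in the CpG-poor group of 124. Density and z-score are inversely related over the whole table, so the 172 other subfamilies within the members' density range are the closer comparison. Of these 172, 68.0% lay above the whole-table median for H3K9me2 in PBS, against 33 of 33 members. For H3K9me2 in PBS their median was -0.351 (SD 0.134 over subfamilies), 0.0877 below the members' median, and 28.5% of them lay above that median. In 5-aza-CdR the gap for H3K9me2 was 0.0874, with 30.8% above. For H3K9me3 the gaps were 0.00379 in PBS and 0.0278 in 5-aza-CdR, with 41.3% and 42.4% above, where 50% would mean no gap. No test of these gaps was made.

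A straight line of z-score on log2 CpG density, fitted over the whole table, gave a similar picture. Of the members, 27 of 33 lay above the median residual for H3K9me2 in PBS and 28 of 33 in 5-aza-CdR, and for H3K9me3 24 and 20 did, with 49.9% of the table above in each library. Within the 33 members the relation to density was weaker than over the table. The Spearman correlation across members between density and H3K9me2 in PBS was -0.17 (n = 33 subfamilies), against -0.74 over the 373. For H3K9me3 in PBS it was -0.40 against -0.61. Subfamilies share libraries and ancestry and are not independent, and the members cover a narrow range of density.

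**Figure D2:**
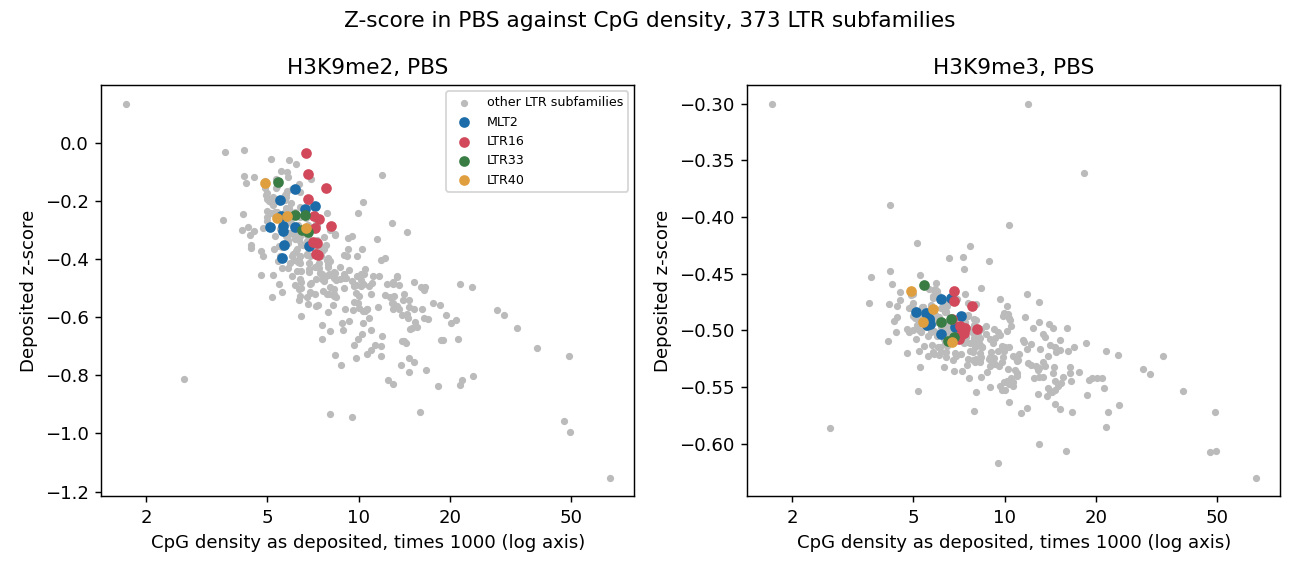
Z-score in PBS (vertical axis) against deposited CpG density times 1000 (horizontal log axis), for H3K9me2 and H3K9me3. Grey points are the other LTR subfamilies and coloured points the 33 ERVL members, which occupy a band from 4.90 to 8.11 per 1000 and sit mostly in the upper part of the H3K9me2 cloud at that density.

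Set against each other, the 4 families overlapped in every library. Median H3K9me2 z-scores in PBS were -0.289 for MLT2, -0.276 for LTR16, -0.250 for LTR33 and -0.256 for LTR40. The SD over the members of a family was 0.0671 at the least (LTR40) and 0.111 at the most (LTR16). In 5-aza-CdR the H3K9me2 medians were 0.471, 0.490, 0.504 and 0.492 in the same order. The PBS library of H3K9me3 had medians of -0.490, -0.499, -0.493 and -0.487, and the 5-aza-CdR library 0.540, 0.558, 0.539 and 0.553. In each library the ranges of every pair of families overlapped. Whether the family medians differ was not tested.

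LTR16 and MLT2 differed in median CpG density at a like z-score, though their densities overlapped (LTR16D1 at 6.72 and MLT2F at 7.20 per 1000). LTR16 had a median density of 7.19 per 1000 and MLT2 of 5.65 per 1000, yet their H3K9me2 medians in PBS were 0.0134 apart. As residuals from the density line, the LTR16 median lay 1.004 robust SDs above the middle of the table for H3K9me2 in PBS and the MLT2 median 0.24 above. In 5-aza-CdR these were 0.98 and 0.14. The H3K9me3 residuals had medians of 0.28 for LTR16 and 0.14 for MLT2 with PBS, and of 0.62 and -0.05 with 5-aza-CdR.

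The MLT2 letters did not form a graded series. MLT2A was lowest in all 4 libraries by letter median and MLT2E, with 1 subfamily, was highest, and the letters between changed order from library to library. In H3K9me2 with PBS the letter medians were -0.355 for A, -0.290 for B, -0.297 for C, -0.251 for D, -0.158 for E and -0.218 for F. MLT2A and MLT2C hold 2 subfamilies each, MLT2B holds 5, and D, E and F hold 1. In 5-aza-CdR the H3K9me2 values were 0.275, 0.469, 0.502, 0.424, 0.607 and 0.478 from A to F. Within MLT2B, the H3K9me2 z-scores were -0.292 with PBS and 0.466 with 5-aza-CdR at MLT2B1, -0.199 and 0.553 at MLT2B2, -0.229 and 0.4997 at MLT2B3, -0.290 and 0.446 at MLT2B4, and -0.397 and 0.469 at MLT2B5. MLT2B5 was thus the lowest of the 5 with PBS and the third highest with 5-aza-CdR. MLT2C1 was at -0.305 and 0.474 and MLT2C2 at -0.288 and 0.530. MLT2F, the last letter, was nearer to MLT2B and MLT2C than to MLT2E after treatment.

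For H3K9me3, the medians from A to F were -0.496, -0.485, -0.490, -0.496, -0.473 and -0.487 in PBS. A and D were nearly level there. After 5-aza-CdR they were 0.412, 0.546, 0.560, 0.478, 0.687 and 0.533. Within MLT2B, the H3K9me3 z-scores were -0.484 with PBS and 0.534 with 5-aza-CdR at MLT2B1, -0.485 and 0.560 at MLT2B2, -0.471 and 0.605 at MLT2B3, -0.503 and 0.532 at MLT2B4, and -0.490 and 0.546 at MLT2B5, so that MLT2B3 was highest and MLT2B4 lowest in both libraries. MLT2C1 was at -0.490 and 0.551 and MLT2C2 at -0.490 and 0.570. Density did not order the MLT2 subfamilies either: across the 12 MLT2 subfamilies the Spearman correlation of density with z-score lay between -0.06 (H3K9me3 in PBS) and 0.13 (H3K9me2 in PBS).

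The HERV-L LTRs differed from the rest of MLT2 mainly in the 5-aza-CdR libraries. MLT2A1 was at -0.352 with PBS and 0.241 with 5-aza-CdR for H3K9me2, and at -0.494 and 0.366 for H3K9me3. MLT2A2 had -0.357 and 0.310 for H3K9me2 and -0.497 and 0.457 for H3K9me3. In the PBS libraries they ranked 29 and 30 of 33 members for H3K9me2 and 19 and 22 for H3K9me3, with MLT2B5 below both for H3K9me2 at -0.397. In the 5-aza-CdR libraries they were the lowest 2 of 33 for both marks. Their densities were 5.68 and 6.86 per 1000, inside the range of the other MLT2 LTRs.

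**Figure D3:**
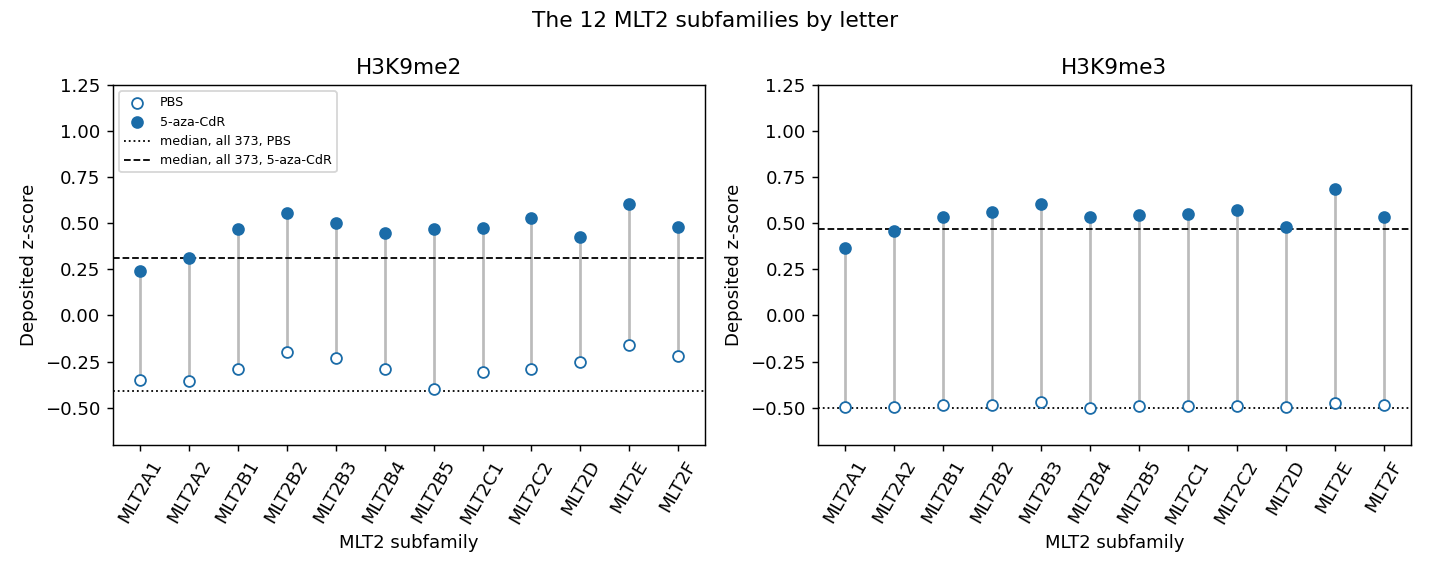
Deposited z-scores (vertical axis) of the 12 MLT2 subfamilies, ordered by letter and number, in PBS (open points) and 5-aza-CdR (filled points) for both marks; dotted and dashed lines are the medians of all 373 subfamilies. MLT2A1 lies below the dashed line for both marks, at 0.241 for H3K9me2 and 0.366 for H3K9me3.

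Among the LTR16 subfamilies, the D group was high. For H3K9me2 in PBS the values were -0.107 at LTR16D, -0.0341 at LTR16D1 and -0.157 at LTR16D2, and the next LTR16 subfamily was LTR16B at -0.194. In 5-aza-CdR they were 0.595, 0.539 and 0.583, followed by LTR16B at 0.534. For H3K9me3 they were -0.465, -0.490 and -0.479 in PBS, where LTR16B at -0.474 lay among them, and 0.630, 0.653 and 0.730 in 5-aza-CdR, above LTR16E1 at 0.612. The 3 LTR16A subfamilies lay below the 3 LTR16D subfamilies in all 4 libraries, for example at -0.293 (LTR16A), -0.340 (LTR16A1) and -0.382 (LTR16A2) for H3K9me2 in PBS. LTR16B and LTR16D have nearly the same density (6.82 per 1000 in each), and LTR16D was the higher in all 4 libraries. The lowest LTR16 subfamily changed with the library. It was LTR16C for H3K9me2 in PBS (-0.387), LTR16B1 for H3K9me2 in 5-aza-CdR (0.385), LTR16A1 for H3K9me3 in PBS (-0.507) and LTR16A for H3K9me3 in 5-aza-CdR (0.471). LTR16B2, the densest member, lay next to the family median in both PBS libraries, at -0.288 for H3K9me2 and -0.499 for H3K9me3. In 5-aza-CdR LTR16E1 did so for H3K9me2 (0.520) and LTR16C for H3K9me3 (0.549).

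In the smaller families a single subfamily led. LTR33B had the highest z-score of the 5 LTR33 subfamilies in all 4 libraries, at -0.135 and 0.666 for H3K9me2 and -0.460 and 0.680 for H3K9me3 (PBS, then 5-aza-CdR). LTR33C was close behind LTR33B in 5-aza-CdR, at 0.632 for H3K9me2 and 0.657 for H3K9me3. LTR33A_ was lowest of its family in 3 of the 4 libraries and LTR33 in H3K9me2 with PBS, at -0.307. LTR40A1 led LTR40 throughout, at -0.139 and 0.664 for H3K9me2 and -0.465 and 0.644 for H3K9me3, and LTR40c, at -0.293, 0.396, -0.510 and 0.506 in the same order, was lowest throughout. LTR33A was the median of LTR33 in each library, at -0.250 and 0.504 for H3K9me2 and -0.493 and 0.539 for H3K9me3. LTR40a and LTR40b filled the middle of LTR40, at -0.261 and -0.252 for H3K9me2 in PBS and 0.468 and 0.517 in 5-aza-CdR. LTR33B and LTR40A1 also had the lowest density of their families (5.41 and 4.90 per 1000), and LTR40c the highest of LTR40 (6.70 per 1000).

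The order of the members was partly shared by the libraries, more at the top than at the bottom. Of the 8 highest members in each library, 5 were among the 8 highest in all 4: LTR16D, LTR16D2, LTR33B, LTR40A1 and MLT2E, so that MLT2, LTR16, LTR33 and LTR40 each supplied at least 1. Of the 8 lowest, only LTR16A2 was among them in all 4. The Spearman correlation between the marks across the 33 members was 0.71 in PBS and 0.94 in 5-aza-CdR, and between treatments it was 0.75 for H3K9me2 and 0.72 for H3K9me3. Over the 373 subfamilies the same values were 0.76 and 0.85 between the marks, and 0.87 and 0.60 between treatments.

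For the treatment comparison, the z-score in PBS was subtracted from that in 5-aza-CdR. For H3K9me2 the member differences ran from 0.573 at LTR16D1 through a median of 0.752 to 0.880 at LTR33C (SD 0.0703 over subfamilies), against a median of 0.702 for all subfamilies. For H3K9me3 they ran from 0.860 at MLT2A1 through 1.037 to 1.21 at LTR16D2 (SD 0.0700), against 0.973. None of the 33 lay beyond 2 robust SDs from the median difference for either mark. Of the table, 2.95% lay above and 8.04% below for H3K9me2, and 1.88% and 7.24% for H3K9me3. The CpG-rich group, which holds no members, supplied 29 of the 30 subfamilies below for H3K9me2 and 25 of 27 for H3K9me3. Among the 172 others in the members' density range, 2.91% lay above and 0.581% below for H3K9me2, and 1.16% and 0.581% for H3K9me3. The count of 0 of 33 was near these shares.

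As deposited, 26 of 33 member differences for H3K9me2 and 30 of 33 for H3K9me3 lay above the median of all subfamilies (49.9% of the table). That direction depended on the scale. In robust SDs the median H3K9me2 difference of the members was 0.40 as deposited, 0.17 as residuals from the density line, -0.26 with each library set to mean 0 and SD 1 and -0.09 on percentile ranks. For H3K9me3 the values were 0.45, 0.06, 0.01 and -0.08. The spread of the libraries differed as well: the SD over all subfamilies was 0.187 in PBS and 0.290 in 5-aza-CdR for H3K9me2, and 0.0354 and 0.206 for H3K9me3.

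By family the median H3K9me2 differences were 0.743 for MLT2, 0.734 for LTR16, 0.759 for LTR33 and 0.749 for LTR40, and the H3K9me3 differences were 1.036, 1.052, 1.032 and 1.040. With SD 1 in each library all 4 H3K9me2 medians lay below the median of the table, and the H3K9me3 medians of MLT2 and LTR40 did so too.

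**Figure D4:**
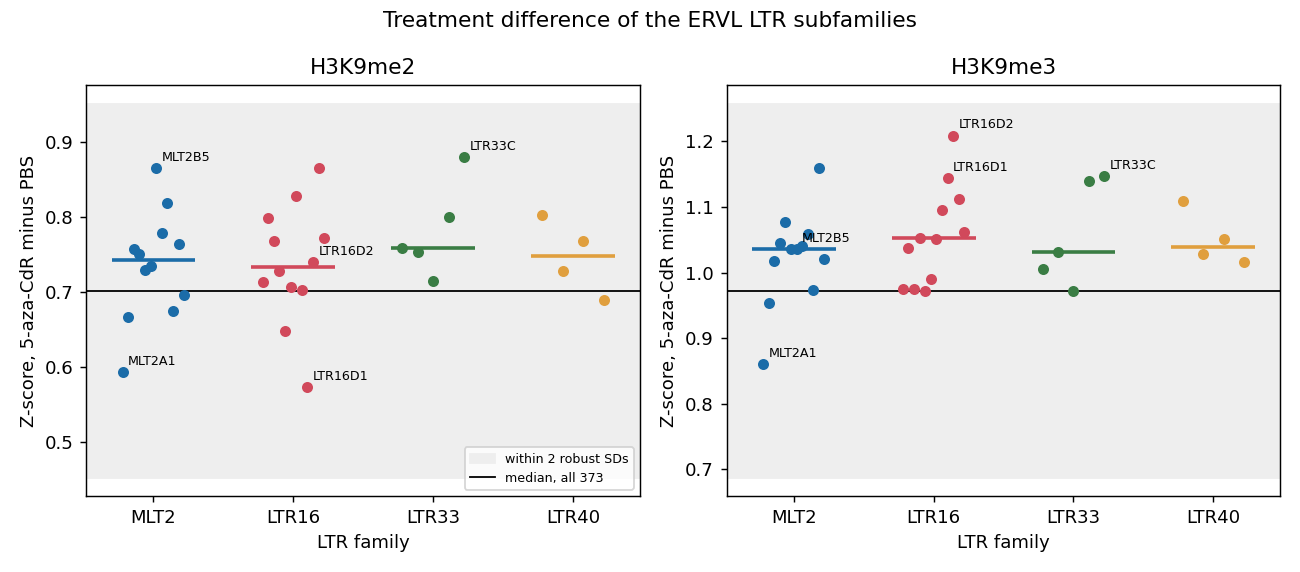
Z-score in 5-aza-CdR minus z-score in PBS (vertical axis) of the ERVL LTR subfamilies by family, for H3K9me2 and H3K9me3. Points are subfamilies, coloured bars family medians, the black line the median of all 373 and the grey band 2 robust SDs on either side; all 33 points lie inside the band for both marks, and LTR16D1 is lowest for H3K9me2 and among the highest for H3K9me3.

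Some members kept their side of the median difference on all 4 scales for both marks. MLT2A1 and MLT2A2 were below it throughout, with differences of 0.593 and 0.667 for H3K9me2 and 0.860 and 0.954 for H3K9me3; 16.6% of the table did the same. In robust SDs MLT2A1 was at -0.87 as deposited and between -1.87 and -0.98 on the other scales for H3K9me2, and at -0.79 and between -1.86 and -1.16 for H3K9me3. Above it on all scales and for both marks were 7 members (LTR16A1, LTR16C, LTR16E1, LTR16E2, LTR33, LTR33C and MLT2C2), against 19% of the table, which is close to the background. Of these, LTR33C had differences of 0.880 for H3K9me2 and 1.147 for H3K9me3, and LTR16E1 of 0.866 and 1.11. Next to the median H3K9me2 difference of their families lay MLT2B4 (0.735), LTR16B (0.728), LTR33 (0.759) and LTR40b (0.769).

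The order of the marks on their own scales turned over in nearly all members. The H3K9me3 z-score was above the H3K9me2 z-score at 0 of 33 in PBS (27.6% of the table) and at 32 of 33 in 5-aza-CdR (94.6%), with LTR40A1 the exception. The 5-aza-CdR share was close to that of the table, so it describes the libraries and not these repeats. How the scales of the marks relate is not known, so the sign itself carries no meaning for the amount of either mark. The gap ran from -0.456 at LTR16D1 to -0.0924 at MLT2B5 in PBS, and from -0.0203 at LTR40A1 to 0.147 at LTR16D2 in 5-aza-CdR.

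The marks parted at LTR16D1. As deposited, its H3K9me2 difference, 0.573, was the smallest of the 33, and its H3K9me3 difference, 1.14, was the fourth largest. The former subtracts a PBS value that was the highest of the 33 in 1 library, and the share due to that value was not tested. On percentile ranks MLT2A1 and LTR16B1 were lower for H3K9me2, at -1.87 and -1.44 robust SDs against -1.03. As density residuals MLT2A1 was lower, at -1.45 against -1.31. LTR16D1 did keep its side of the median. It lay below the median difference for H3K9me2 and above it for H3K9me3 on all 4 scales, as did LTR40c (0.689 and 1.016) and 2.41% of the table. For H3K9me2 LTR16D1 ranked 1 of 33 in PBS and 8 in 5-aza-CdR. LTR16D and LTR16D2, at ranks 2 and 5 in PBS, had H3K9me2 differences of 0.703 and 0.740, below the members' median. LTR33B and LTR40A1, at ranks 3 and 4, had differences of 0.800 and 0.803, above that median. For H3K9me3 LTR16D1 ranked 15 in PBS and 5 in 5-aza-CdR. Across the 33 members the H3K9me2 and H3K9me3 differences correlated with a Spearman coefficient of 0.52, against 0.70 over the table; within MLT2 it was 0.62 and within LTR16 0.12 (12 subfamilies each).

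The 33 members, pooled, can be set beside related LTRs. The MaLR LTRs, which derive from non-autonomous relatives of ERVL, had H3K9me2 medians of -0.341 with PBS and 0.397 with 5-aza-CdR over 38 subfamilies, and 32 of 38 lay above the median of the table in PBS. MLT1, with 28 of the 38, was close to the members, at -0.314 and 0.441 for H3K9me2 and -0.496 and 0.545 for H3K9me3. For H3K9me2 in PBS, 27 of the 28 lay above the median of the table. For H3K9me3 the MLT1 median lay above that of LTR16 with PBS and above those of MLT2 and LTR33 with 5-aza-CdR. A list of 43 other LTRs, placed in ERVL from general repeat classification and not from the table, had medians of -0.351 and 0.321, with 28 of 43 above in PBS. For H3K9me3 in 5-aza-CdR the medians were 0.514 for MaLR and 0.454 for the other ERVL LTRs, against 0.546 for the members. Median densities were 6.31 per 1000 for MaLR, 7.26 per 1000 for the other ERVL LTRs and 6.64 per 1000 for the members. No test of these differences was made, and they are not shown to be particular to the 4 families.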

How the data were processed

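Native ChIP-seq of H3K9me2 and H3K9me3 in HCT116 cells gave 4 libraries, 1 per mark and treatment. Bowtie2 and the hg19 build are named in the submitters' processing notes. The authors deposited 1 table of 373 LTR subfamilies with a z-score (a standardised score) per library, per the file headers. The authors also deposited CpG density, a ratio with no stated denominator, printed here per 1000. The sources used here do not give the use of an input, the treatment of multi-mapping reads, the depth or the population behind the z-score, and no counting interval was computed.

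Members were taken by name. Levels, 5-aza-CdR minus PBS differences, robust SDs (median absolute deviation times 1.4826) and residuals from a line on log2 CpG density were computed over all 373 subfamilies with Python 3.11.15, pandas 2.3.3 and scipy 1.17.1, and the functions were tested on simulated data. No p-value was computed. All MLT2 members were named, and in the other families the highest, the lowest and members at or next to the median in a library or difference, and those beyond a limit. LTR16A, LTR16A1, LTR16A2 and the letter groups of LTR16 were chosen after their values were seen. The members and lists were chosen with earlier results of these data known. The alternatives were mean 0 and SD 1 per library, percentile ranks, density residuals, other limits and left-out members.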

Additional observations from a re-analysis of the deposited data

How the results depend on the processing

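Distances here are in robust SDs from the median of all 373 subfamilies. The members' median level kept its direction in all 4 libraries under every scale tried and without left-out members. Setting the SD to 1 and taking ranks keep the order within a library, so they could not turn that direction. Density residuals could. On them the median level was 0.53 in PBS and 0.55 in 5-aza-CdR for H3K9me2, and 0.17 and 0.11 for H3K9me3. The median H3K9me2 difference, 0.40 as deposited, was -0.264 with mean 0 and SD 1 in each library and -0.0899 on percentile ranks. The median H3K9me3 difference, 0.45 as deposited, was -0.0826 on ranks. The count of members beyond the limit, 0 of 33 for each mark as deposited, became 1 for H3K9me2 with SD 1 (LTR16D1, below) and 1 on ranks (MLT2B5, above), and 1 for H3K9me3 as density residuals (LTR16D2, above). It stayed at 0 with limits of 3 robust SDs or 2 ordinary SDs. Leaving out LTR33A_, or MLT2A1 and MLT2A2 (chosen after seeing the data), turned no direction. Why the scales differ was not tested beyond their construction. No paired analysis was possible because each group has 1 library. Depth is unknown, and no difference has a replicate check.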
